A study of Homo sapiens with 7 samples.

Results

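A set of 10 genes that are mutated or act in hereditary and sporadic renal cell carcinoma (RCC) were followed in ACHN cells with and without HOTAIR. They were VHL, PBRM1, BAP1, SETD2, FH, SDHB, FLCN, TSC1, TSC2 and MTOR, and were taken by name from the array annotation, which gives them 14 probes on 25 spots per array, among 34809 names. All 10 genes had a probe well above background on all 7 arrays, and 13 of the 14 probes could be tested. None of the 13 differed between HOTAIR and EV arrays beyond the spread between arrays.

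ACHN is an established human RCC line. The cells had been infected with a retrovirus that carried either a pBabe-hygro empty vector (EV, 4 arrays) or the same vector with human HOTAIR cDNA (HOTAIR, 3 arrays) and had been selected with hygromycin, so that both groups carried a vector and had undergone selection. Total RNA of each sample was hybridised in a single colour to an Agilent SurePrint G3 Human GE 8 x 60K array. The comparison asked which transcripts differ once HOTAIR, a long non-coding RNA of the HOXC cluster, is overexpressed. The labels do not say whether the samples of a group came from separate cultures, so that the p-values measure the spread between these 7 samples, which may be technical.

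In the kidney these genes fall into a few pathways. VHL is the substrate receptor of a ubiquitin ligase that marks hypoxia-inducible factor (HIF) for degradation, and its loss leaves HIF active. PBRM1, BAP1 and SETD2 lie with VHL on the short arm of chromosome 3, where a single deletion can remove a copy of each, and they encode a chromatin remodelling subunit, a deubiquitinase and a histone methyltransferase. FH and SDHB are enzymes of the tricarboxylic acid cycle whose loss lets fumarate or succinate accumulate and inhibit the prolyl hydroxylases that act on HIF. FLCN, TSC1 and TSC2 control the kinase MTOR, FLCN at the lysosome through the Rag GTPases and the TSC proteins through the small GTPase RHEB.

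What each array could see of these genes was set by its probes of 60 bases, placed here on hg19 as the array annotation gives them. The probes of SETD2 and TSC2 are shown because SETD2 had the largest negative difference and because the TSC2 probes lie at different ends of the gene. In the SETD2 probe (chr3:47058580-47058639, minus strand) the capitals mark a stop triplet that follows 54 bases without a stop in the same frame. The TSC2 probes lie near the start (chr16:2100427-2100486, plus strand) and the end of the gene (chr16:2136775-2136834, plus strand). Neither these nor the SETD2 probe shared a run of 16 bases with a probe of the array under another gene name.
SETD2 A_23_P44760: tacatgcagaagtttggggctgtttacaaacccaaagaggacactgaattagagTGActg
TSC2 A_33_P3281686: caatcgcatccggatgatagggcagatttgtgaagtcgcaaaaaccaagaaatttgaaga
TSC2 A_23_P66110: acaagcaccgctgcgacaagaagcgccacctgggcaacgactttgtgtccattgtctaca

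Shared runs were sought on either strand, among probes under other gene names, and the strand of a run was not examined further. The MTOR probe shared a run of 16 bases with 1 lincRNA probe. The VHL probe shared runs of at least 16 bases with 2 other probes of the array, so that its signal may not come from VHL alone. The other member probes shared none. The annotation names a transcript for every member probe but gives no exon or UTR for them, and no gene model of hg19 was used here.

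Values below are the log2 of the processed intensity less the 75th percentile of the same array, so that 0 is that percentile and a negative value is a dimmer spot. The scale serves to compare arrays for 1 probe, and levels of different probes are not compared. The 75th percentile itself lay between 523 and 649 intensity units, between 48.7% and 52.2% of the probes of an array were well above background, and no spot was saturated. The HOTAIR probe read -6.29, -6.97, -6.42 and -7.07 on EV 1 to EV 4, where it was not well above background. It read -3.12, -3.24 and -2.58 on HOTAIR 1 to HOTAIR 3, where it was (adjusted p = 0.00162, limma). This probe entered the test through the HOTAIR arrays alone, and HOTAIR was the insert of the vector, so that its p-value checks the overexpression only. Of 9 genes fixed as markers of renal epithelium and its tumours, 8 were above background on all arrays and CDH6 on none, while of 8 markers of blood, endothelium, fibroblasts and liver none was above background on all arrays and 6 were on none. EV 2 stood apart from the other arrays on the first principal component (74.0, against -29.4 to 21.1 for the others), HOTAIR 3 came next to it, and all 7 arrays shared 1 slide, on which the row of the array and the group cannot be told apart.

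**Figure D1:**
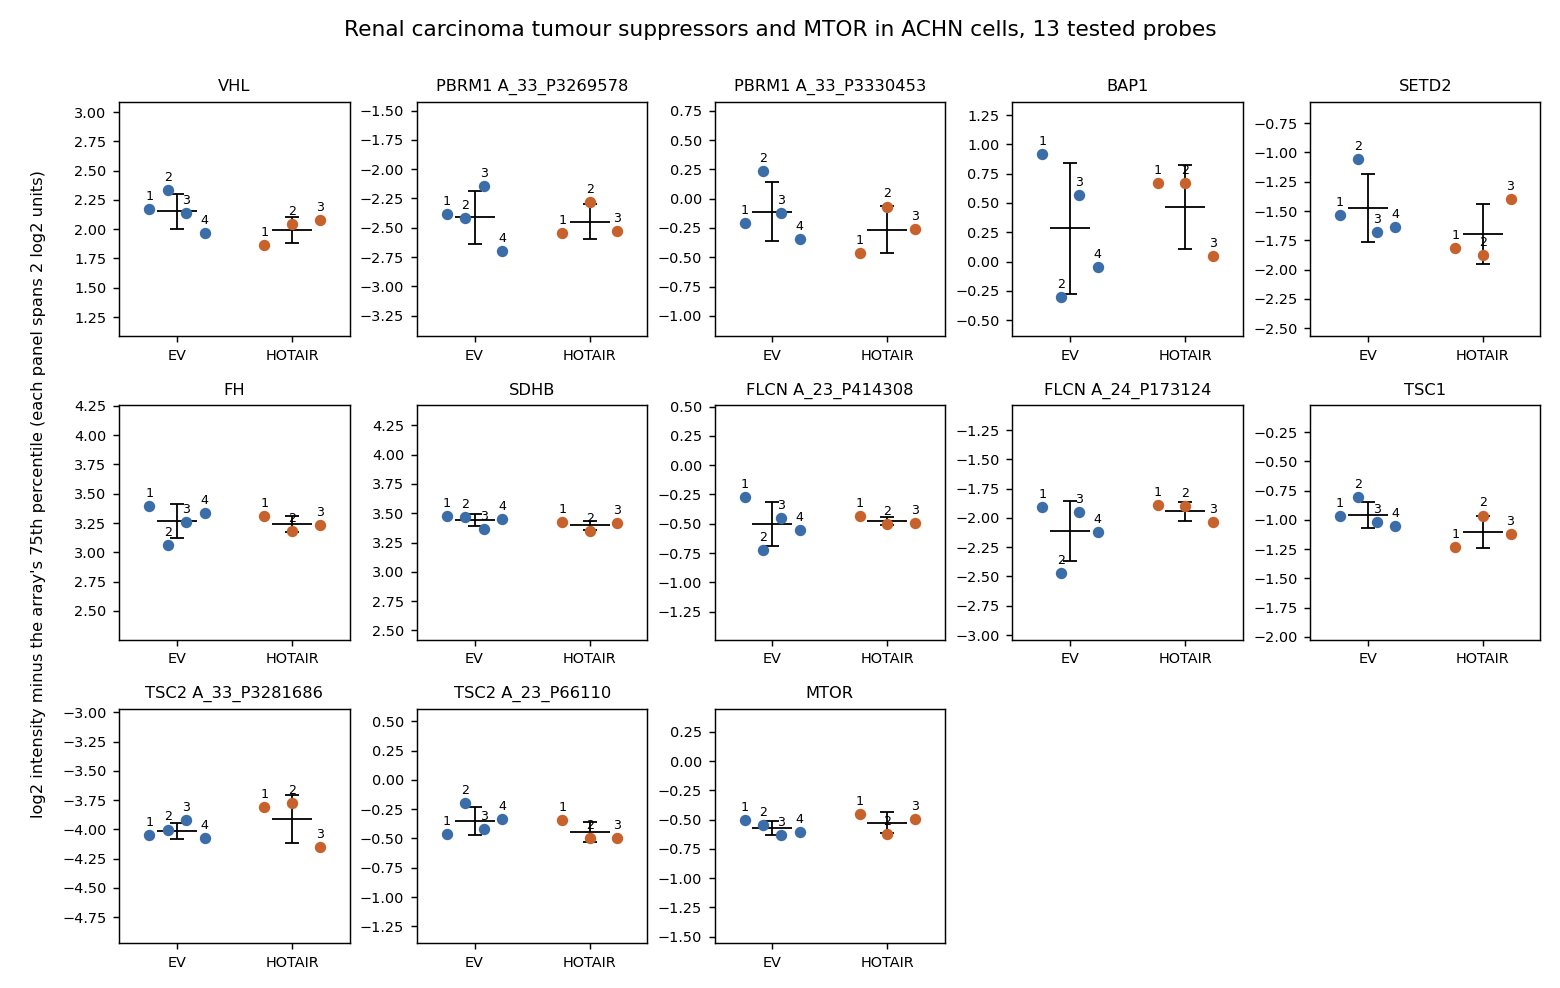
Log2 intensity less the 75th percentile of the array (y axis) for the 13 tested probes on the 4 EV arrays (blue) and the 3 HOTAIR arrays (orange). Points carry the array number, bars give the mean and SD of each group, every panel spans 2 log2 units, and in each panel the ranges of both groups overlap.

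VHL was read at 2.17, 2.33, 2.14 and 1.97 on the EV arrays and at 1.86, 2.04 and 2.08 on the HOTAIR arrays. HOTAIR 1 was below every EV array, while HOTAIR 2 and HOTAIR 3 lay within the EV range. The difference of the means was -0.16 (SE 0.124), with a 95% interval from -0.45 to 0.13, that is a HOTAIR level of 0.895 times the EV level (0.733 to 1.09). The adjusted p was 0.986 (limma, adjusted over all 20419 tested probes), and an exact two-sided permutation test gave p = 0.229, where the smallest p that 35 ways to take 3 of 7 arrays allow is 0.0286.

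PBRM1, the subunit that defines the PBAF form of the SWI/SNF remodelling complex, has 2 tested probes. The brighter (chr3:52579511-52579570, minus strand) read -0.21, 0.24, -0.13 and -0.34 in EV and -0.46, -0.07 and -0.26 in HOTAIR, a difference of -0.15 (SE 0.168). The other (chr3:52582059-52582118, minus strand) read -2.38, -2.42, -2.14 and -2.70 in EV and -2.54, -2.28 and -2.53 in HOTAIR, a difference of -0.04 (SE 0.153). On the brighter probe EV 2 was the highest array and HOTAIR 1 the lowest, and on the other probe EV 2 was close to the EV mean. The groups overlapped on both probes.

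SETD2, which places the trimethyl mark on lysine 36 of histone H3 in transcribed genes, had the largest negative difference of the 13 probes. It read -1.53, -1.05, -1.68 and -1.64 in EV and -1.82, -1.87 and -1.40 in HOTAIR. HOTAIR 1 and HOTAIR 2 were below every EV array, HOTAIR 3 was above all but EV 2, and EV 2 and HOTAIR 3 were the highest arrays of their groups. The difference of -0.22 (SE 0.194, interval -0.67 to 0.23, adjusted p = 0.993) was -0.08 without EV 2, -0.37 without HOTAIR 3 and -0.23 without both, and none of these passed the test.

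BAP1, the deubiquitinase that acts on histone H2A and is lost in a class of aggressive RCC, had the largest positive difference and the widest spread. Its probe (chr3:52435887-52435946, minus strand) read 0.91, -0.30, 0.57 and -0.04 in EV and 0.67, 0.67 and 0.05 in HOTAIR. The arrays fell into a high and a low set in each group, with EV 2, EV 4 and HOTAIR 3 low and the others high, and the HOTAIR arrays lay within the EV range. The difference was 0.18 (SE 0.316, interval -0.55 to 0.92, adjusted p = 0.993), a level of 1.13 times the EV level (0.681 to 1.89), and without EV 2 it was -0.01. The SD within groups of this probe exceeded that of 87.8% of all tested probes.

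The low value of BAP1 on EV 4 rested on 1 of its 2 spots. These spots read 0.60 and -0.68 on EV 4, a gap of 1.28, and neither carried an outlier flag. On that array 55 of 4826 tested probes with 2 spots had a gap at least as large, and the median gap of the 4826 was 0.111. Over the 7 arrays the median gap of BAP1 was 0.170, the highest of the 11 member probes with 2 spots. The median of these 11 values was 0.098. With the first spot alone the difference between the groups was 0.01 (adjusted p = 0.998, limma), and with the second spot alone it was 0.35 (adjusted p = 0.993, limma), a choice made after these values were seen. On EV 2 and HOTAIR 3 the low values were shared by both spots.

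**Figure D2:**
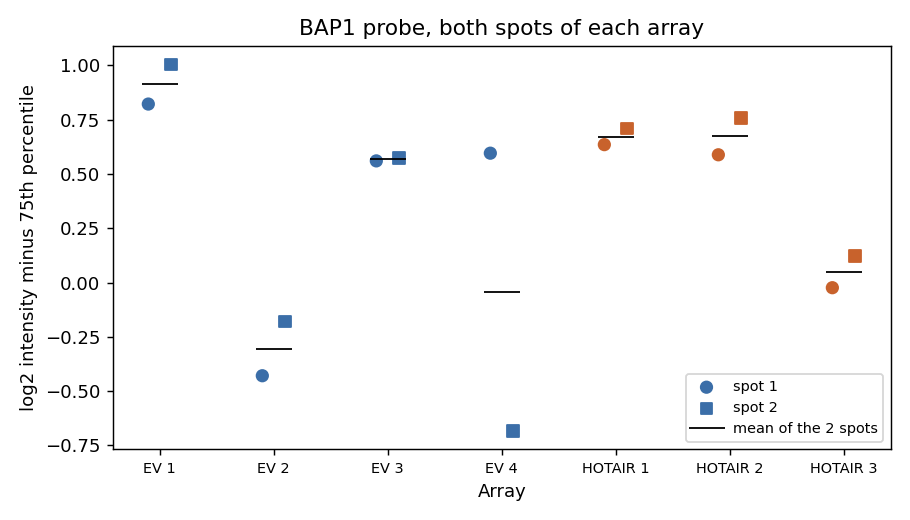
Log2 intensity less the 75th percentile of the array (y axis) for each of the 2 spots of the BAP1 probe on the 7 arrays (x axis), EV in blue and HOTAIR in orange, with a bar at the mean. The spots lie close together except on EV 4, where they read 0.60 and -0.68.

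FH and SDHB are the members of the tricarboxylic acid cycle, and SDHB had the smallest SD within groups of the 13 tested probes. FH, which hydrates fumarate to malate, read 3.40, 3.07, 3.26 and 3.33 in EV and 3.31, 3.18 and 3.23 in HOTAIR, a difference of -0.02 (SE 0.117, interval -0.30 to 0.25). SDHB, the iron-sulphur subunit of succinate dehydrogenase, read 3.48, 3.47, 3.36 and 3.45 in EV and 3.42, 3.35 and 3.41 in HOTAIR, a difference of -0.04 (SE 0.095, interval -0.26 to 0.18). The HOTAIR arrays of FH lay inside the EV range, and those of SDHB lay inside it but for HOTAIR 2, which was just below. The SD of SDHB within groups was smaller than that of all but 0.451% of the tested probes. As a level, the 95% interval of SDHB ran from 0.833 to 1.13 times the EV level.

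FLCN, the tumour suppressor of Birt-Hogg-Dubé syndrome, has 3 probes. Probe A_23_P414308 (chr17:17124668-17124727, minus strand) read -0.27, -0.72, -0.45 and -0.55 in EV and -0.43, -0.50 and -0.50 in HOTAIR, a difference of 0.02 (SE 0.128). Probe A_24_P173124 (chr17:17116134-17116193, minus strand) read -1.90, -2.47, -1.95 and -2.12 in EV and -1.89, -1.90 and -2.04 in HOTAIR, a difference of 0.17 (SE 0.156). EV 2 was the lowest array on both, and without it the first difference was -0.05. The annotation names a different transcript for each of these 2 probes, and A_23_P414308 stands for FLCN where a single probe is used. The remaining probe, A_33_P3359763 (chr17:17126164-17126223, minus strand), did not rise well above background on the 7 arrays and could not be tested.

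TSC1 and TSC2 form the complex that keeps RHEB, the activator of MTOR, in its inactive state. TSC1 (chr9:135766811-135766870, minus strand) read -0.96, -0.81, -1.02 and -1.05 in EV and -1.23, -0.96 and -1.12 in HOTAIR, a difference of -0.15 (SE 0.117, interval -0.42 to 0.13). HOTAIR 1 and HOTAIR 3 were below every EV array and HOTAIR 2 was within their range. Its exact two-sided permutation p of 0.200 was the smallest among the member probes.

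The probe near the end of TSC2 read -0.46, -0.19, -0.42 and -0.33 in EV and -0.34, -0.50 and -0.49 in HOTAIR, a difference of -0.09 (SE 0.112, interval -0.35 to 0.17). The probe near its start read -4.05, -4.0, -3.92 and -4.07 in EV and -3.80, -3.78 and -4.15 in HOTAIR, a difference of 0.10 (SE 0.125, interval -0.19 to 0.39). The 2 probes differed in sign, HOTAIR 2 and HOTAIR 3 being the lowest arrays on the former and HOTAIR 1 and HOTAIR 2 the highest on the latter. In neither case did the test separate the groups.

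MTOR, the kinase shared by the complexes mTORC1 and mTORC2, was steady across all arrays. Its probe (chr1:11167492-11167551, minus strand) read -0.50, -0.55, -0.63 and -0.61 in EV and -0.45, -0.62 and -0.50 in HOTAIR. HOTAIR 1 was the highest array, HOTAIR 3 and EV 1 were next with nearly the same value, and HOTAIR 2 lay among the low EV arrays. The difference was 0.05 (SE 0.101, interval -0.19 to 0.28), a level of 1.03 times the EV level (0.878 to 1.22), and the SD within groups was smaller than that of all but 2.93% of the tested probes.

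**Figure D3:**
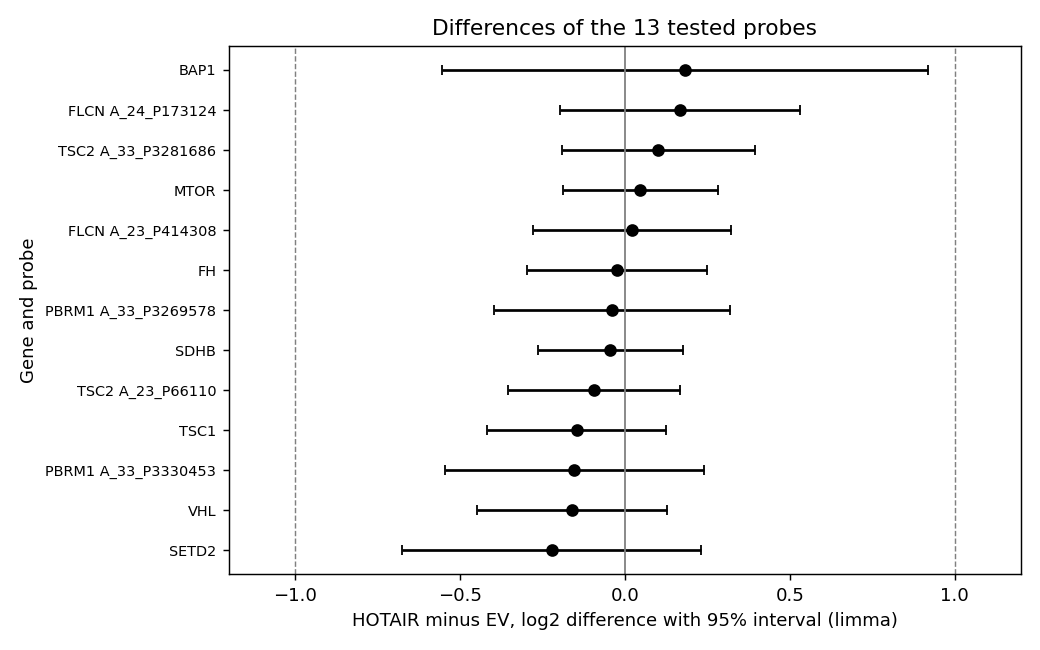
HOTAIR minus EV differences on the log2 scale (x axis) of the 13 tested probes (y axis), sorted by size. Points are the limma estimates and bars their 95% intervals, the dashed lines mark a log2 difference of 1 in either direction, and all 13 intervals include 0 and lie within the dashed lines.

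Read together, 5 of the 13 probes were higher and 8 lower in HOTAIR, with differences from -0.22 to 0.18 and a median of -0.04, against a median of 0.01 over all tested probes. None of the 13 passed an adjusted p of 0.05 by limma, which 0.167% of all tested probes did, and 0 passed an unadjusted p of 0.05, which 5.85% of all did. In none of the 13 did the HOTAIR arrays lie wholly above or below the EV arrays, which 7.7% of all probes did, and 0 were called by the rank product, which called 0.421% of all. With so few probes, 0 is close to these shares. All 13 had a 95% interval within a log2 difference of 1, against 87% of all tested probes, and 9 of the 13 had one within 0.5, against 44.5%. The adjusted p-values of the members ran from 0.986 to 0.995 (limma), which does not show that the levels were the same, and the intervals above give the sizes that the arrays leave possible.

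Within the EV group, EV 2 was the array farthest from the mean for 5 of the 10 genes (PBRM1, SETD2, FH, TSC1 and TSC2, on the brightest probe). The SD within groups was above the median of all tested probes (0.220) for BAP1, SETD2 and the brighter PBRM1 probe and below it for the other 10. Relative to the EV mean, EV 2 read higher by 0.42 for SETD2, 0.35 for PBRM1, 0.18 for VHL, 0.16 for TSC2 and 0.15 for TSC1, and lower by a log2 of -0.59 for BAP1, -0.22 for FLCN and -0.20 for FH. For MTOR and SDHB it was within 0.03 of the mean. HOTAIR 3 deviated from its group mean by 0.30 for SETD2 and -0.42 for BAP1, the same directions as EV 2, and across all tested probes the deviations of EV 2 and HOTAIR 3 had a correlation of 0.62 over probes, which are not independent replicates. The median deviation of the member probes on EV 2, taken without sign, was 0.18, against 0.22 for all tested probes. Whether these arrays differ in the cells, the RNA or the hybridisation was not tested.

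**Figure D4:**
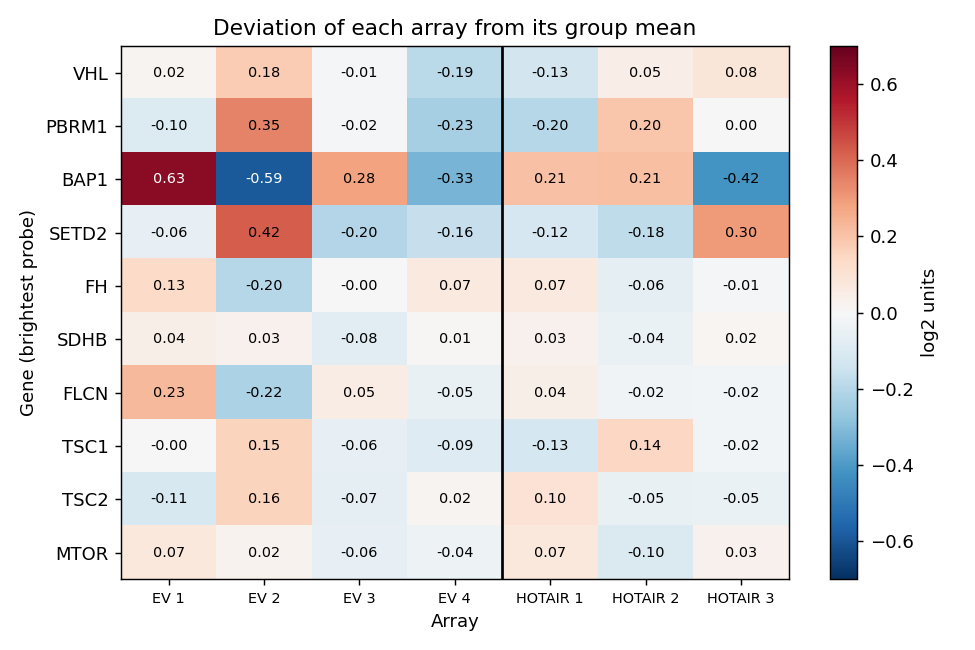
Deviation of each array (x axis) from the mean of its group, in log2 units, for the brightest probe of each of the 10 genes (y axis), with red above and blue below the mean. EV 2 is above its group mean for SETD2 (0.42) and PBRM1 (0.35) and below it for BAP1 (-0.59), while MTOR and SDHB stay near 0 on every array.

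For the members other than TSC1, the 2 genes whose brightest probe followed it most closely over the 7 arrays were looked up among 16654 genes, as a description of likeness over few and shared arrays. For VHL they were IFT81 and EIF2B1 (r = 0.991 and 0.990), for SETD2 RRN3 and C1orf201 (r = 0.996 and 0.993), and for BAP1 RGPD6 and CD46 (r = 0.991 and 0.990). RGPD6 read -4.10 on EV 2, -3.49 on EV 4 and -3.40 on HOTAIR 3 and between -2.25 and -1.84 on the other arrays. These are the same high and low sets of arrays as for BAP1, and CD46 had them too. Both genes were picked for following BAP1, so that this likeness came with the choice. On EV 4 the spots of BAP1 itself read 0.60 and -0.68. RGPD6 belongs to a family of near-identical copies, and its probe may read more than 1 of them. TSC2 was followed by PPP1R15A and S100A16 (r = 0.970 and 0.967) and FLCN by TTC21B and MAP2K5 (r = 0.985 and 0.979). For PBRM1 they were SFI1 (r = 0.985) and a lincRNA interval probe, for FH a lincRNA interval probe and SLC31A1 (r = 0.973), and for SDHB a lincRNA interval probe and CTXN1 (r = 0.965). The 2 genes for MTOR were TDRKH and TRPM4 (r = 0.954 and 0.947).

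The partners and pathway genes of the members were read from 9 lists with 135 genes, of which 134 have a probe under the listed or an older name and 128 were tested on their brightest probe. None of the 128 passed the adjusted p (0.167% of all tested probes did), 3 passed an unadjusted p of 0.05 (5.85% of all did), and the groups did not overlap for 8 genes (6.25%, against 7.7% of all tested probes), 2 higher and 6 lower in HOTAIR. The median over the 128 was -0.04, against 0.01 over the brightest probes of all genes. Of the 128, 50 were higher and 78 lower in HOTAIR, and the counts of single lists below were not tested. Of their 183 tested probes none passed the adjusted p.

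Among the partners of VHL and the HIF pathway, 6 of 10 tested genes were higher and 4 lower. They ran from -0.19 for TCEB2 (elongin B, a subunit of the VHL ligase) to 0.14 for EGLN2, a HIF prolyl hydroxylase. HIF1A differed by -0.10 (SE 0.137) and EPAS1, which encodes the other main HIF alpha subunit of the kidney, by 0.07 (SE 0.143). Among subunits of SWI/SNF, 3 of 14 were higher and 11 lower, from -0.35 for ARID1A (SE 0.344) to 0.07 for SMARCD1 (SE 0.322). SMARCE1 read 2.60, 2.50, 2.51 and 2.46 in EV and 2.26, 2.31 and 2.07 in HOTAIR and ACTL6A read 3.05, 3.17, 3.02 and 2.92 in EV and 2.83, 2.77 and 2.88 in HOTAIR. In both of these every HOTAIR array was below every EV array, but the differences of -0.30 (adjusted p = 0.725, limma) and -0.22 (adjusted p = 0.915, limma) were not past the test.

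Of the partners of BAP1, 3 of 9 were higher and 6 lower, from -0.32 for MBD5 to 0.18 for ASXL1. ASXL1, the cofactor that activates BAP1, read 0.79, 0.83, 0.81 and 0.88 in EV and 1.07, 0.98 and 0.96 in HOTAIR, with every HOTAIR array above every EV array (adjusted p = 0.926, limma). For the methyltransferases of lysine 36 and partners of SETD2, 5 of 8 were higher and 3 lower, from -0.19 for WHSC1 to 0.21 for ASH1L. The genes of the tricarboxylic acid cycle, 9 of 22 higher and 13 lower, ran from -0.31 for SUCLA2 to 0.33 for IDH2, and the other succinate dehydrogenase subunits SDHA, SDHC and SDHD differed by -0.05, -0.04 and -0.07.

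Around FLCN and the Rag GTPases, 8 of 20 tested genes were higher and 12 lower, from -0.35 for MITF to 0.29 for RRAGD, and the FLCN partners FNIP1 and FNIP2 differed by -0.15 (SE 0.121) and -0.05 (SE 0.113). C7orf59, a Ragulator subunit, read 4.29, 3.87, 4.10 and 3.85 in EV and 3.84, 3.79 and 3.59 in HOTAIR, where every HOTAIR array was below every EV array by a narrow margin (difference -0.29, adjusted p = 0.926, limma). Upstream of mTORC1, 4 of 14 were higher and 10 lower, from -0.42 for SESN1 to 0.20 for DDIT4. SESN1, a stress-induced sestrin that restrains mTORC1, read -0.51, -0.08, -0.32 and -0.46 in EV and -0.68, -0.86 and -0.74 in HOTAIR, with every HOTAIR array lower. It had the largest negative difference of the lists and was not past the test (SE 0.133, adjusted p = 0.627, limma).

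Within the mTOR complexes and their effectors, 10 of 19 were higher and 9 lower, from -0.21 for RPTOR, the scaffold of mTORC1, to 0.44 for PRR5, a subunit of mTORC2. RPTOR read 2.08, 1.98, 1.97 and 2.01 in EV and 1.96, 1.86 and 1.60 in HOTAIR, and PRR5L, a relative of PRR5, read -3.55, -3.47, -3.46 and -3.51 in EV and -3.36, -3.10 and -3.16 in HOTAIR. Neither pair of groups overlapped, but for RPTOR the margin was narrow, with HOTAIR 1 at 1.96 and EV 3 at 1.97. Neither gene was past the test (adjusted p = 0.939 and 0.75, limma), while the PRR5 groups overlapped. The core mTORC2 subunit RICTOR differed by 0.07 (SE 0.166) and MLST8, found in both complexes, by -0.13 (SE 0.122). Of 12 tested genes mutated in other RCC, 2 were higher and 10 lower, from -0.14 for CDKN2A to 0.04 for MLL3, and in KEAP1, the adaptor that holds NRF2 low, every HOTAIR array was below every EV array at a difference of -0.07 (adjusted p = 0.993, limma).

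**Figure D5:**
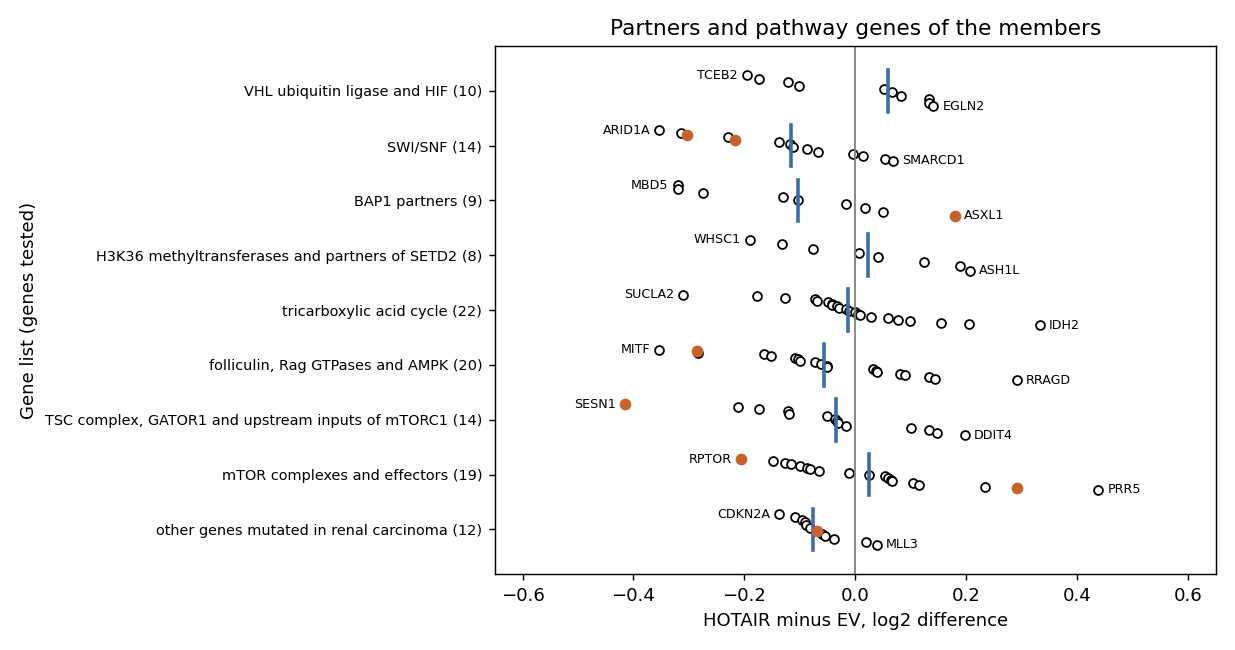
HOTAIR minus EV differences on the log2 scale (x axis) of the 128 tested genes of 9 lists (y axis, with the number tested). Each circle is a gene on its brightest probe, filled orange where the arrays of both groups do not overlap (8 genes), the blue bar is the median of the list, and the genes at both ends of each list are named.

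VHL, SETD2, BAP1 and PBRM1 lie on the short arm of chromosome 3, of which 445 probes for 388 genes were tested. The median difference of the arm was -0.00016, with quartiles at -0.11 and 0.10, against quartiles at -0.11 and 0.15 over all tested probes. Of the 445, 40 (8.99%) did not overlap between the groups, against 7.7% of all tested probes. An unadjusted p of 0.05 was passed by 21 (4.72%, against 5.85%) and the adjusted p by 1 (0.225%, against 0.167%), shares near those over the whole array. That probe was of ZNF385D, a zinc finger gene (chr3:21478521-21478580, minus strand), and read -3.46, -3.48, -3.58 and -3.58 in EV and -2.59, -2.58 and -2.74 in HOTAIR. It rose by 0.88 (SE 0.101, adjusted p = 0.0339, limma), and leaving out any single array other than EV 2 left no probe of the arm past the test.

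Probes under other names within 50000 bases of a mapped member probe numbered 24, of which 12 were tested. None of the 12 passed the adjusted p, which 0.167% of all tested probes did. None of them had groups that did not overlap, against 7.7% of all tested probes. With so few probes, 0 is close to these shares. The differences of the 12 ran from -0.20 to 0.43. PKD1, the polycystic kidney disease gene beside TSC2, had 2 probes, with differences of 0.07 (SE 0.111) at a distance of 2420 bases and of 0.43 (SE 0.474) at 28546 bases, the latter reading 0.94 on EV 2 against 1.92 to 2.87 on the other EV arrays. Beside SETD2, NBEAL2 differed by 0.23 (SE 0.527) and read -3.47 on EV 2 and -2.61 on HOTAIR 3, the lowest of their groups, where SETD2 was highest. Beside FLCN, PLD6 and COPS3 differed by -0.12 (SE 0.110) and -0.10 (SE 0.132). The VHL and TSC1 windows held no tested neighbour, and the FH window held no probe under another name. The SDHB probe has no position in the annotation, so it had no window.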

How the data were processed

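The authors read the arrays with Agilent Feature Extraction 10.7.3.1 and deposited the per-array output, where each spot has a processed intensity (background subtracted, linear scale), and a table of the same intensities, not scaled between arrays. From these files the log2 of the processed intensity was computed and the 75th percentile over 58717 non-control spots of each array subtracted. Outlier-flagged spots were left out (0 of 175 member spots) and spots of a probe averaged. A probe was tested if it was well above background on all EV or all HOTAIR arrays, with limma 3.58.1 in R 4.3.3 (lmFit, eBayes, Benjamini-Hochberg over 20419 probes, 16664 names). Single probes also had an exact permutation test. The rank product used 12 comparisons of arrays and 100 permutations. The brightest tested probe stands for a gene. Scripts were tested on simulated arrays. The number of arrays limits the precision. The members, lists and naming rule (all members, list genes past the test or at either end of a list, neighbours that do not overlap, and the 2 closest patterns) were chosen with earlier results of these data known. List genes, neighbours and probes outside that rule (KEAP1, PKD1 and SETD5 among them) were named after their values were seen. Groups follow the sample labels. The closest patterns to TSC1 and the sequences of some member probes are not reported here.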

Additional observations from a re-analysis of the deposited data

How the results depend on the processing

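No member probe, no probe of the 9 lists and no neighbour passed an adjusted p of 0.05 under any of the 19 alternatives to the counts, and none of 182 recomputed member differences passed it (lowest adjusted p = 0.404, for SETD2 with array weights, limma). The exact Mann-Whitney test cannot pass after adjustment with these group sizes. On the short arm of chromosome 3 the count of 1 became 0 with normexp background correction, quantile normalization, the deposited table without scaling, no filter on dim probes, EV 2 and HOTAIR 3 both left out, the replicate block, trend and robust moderation and the Mann-Whitney test, and 9 with array weights, where calls over all probes went from 34 to 324. Leaving out single arrays gave 0 to 1. The cause was not tested. The alternatives for the arm, the neighbours and the BAP1 spots were added after the data were seen.

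The sign changed in 11 member differences, all near 0: for SDHB (0.0591) and FLCN (-0.0256) with normexp, FH (0.0194) unscaled, FLCN without EV 2 and HOTAIR 3 (-0.0424) and with array weights (-0.0512), and TSC2 averaged over its probes (0.00385). With single arrays left out FH ran from -0.0899 to 0.0214, BAP1 from -0.0141 to 0.392 and FLCN from -0.0528 to 0.0966. VHL, PBRM1, SETD2, TSC1 and MTOR kept their sign throughout. The deviations of same-numbered arrays from their group means had correlations of 0.39, -0.37 and -0.41 over probes, for replicates 1, 2 and 3. Deviations from a group mean tie the arrays of a group together, so these values cannot settle whether the numbers pair the samples. With the replicate block 0 member probes and 0 probes over the whole array passed.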

Other observations

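SETD5, a relative of SETD2 on the short arm of chromosome 3, has 3 tested probes. Probe A_24_P944427 read -5.95, -5.67, -5.23 and -5.41 on the EV arrays, on none of which it was well above background, and -4.84, -4.44 and -4.12 on the HOTAIR arrays, on all 3 of which it was. It entered the test through the HOTAIR arrays alone and did not pass (adjusted p = 0.201, limma). Probes A_23_P92035 and A_33_P3376434, above background on all 7 arrays, differed by 0.04 (SE 0.152) and -0.00068 (SE 0.203), and differences between the probes were not tested. SETD5 was named after its values were seen.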
